A study of Homo sapiens with 4 samples.

Results

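The HOX cluster genes are the homeobox genes of the HOXA, HOXB, HOXC and HOXD clusters. They were chosen by name: a gene was included where a row of the deposited expression table carried exactly 1 gene symbol and that symbol was one of the 39 protein-coding HOX genes. In this way 27 of the 39 genes were found, among 18417 genes with such a row in all. They were 1 of 11 HOXA genes (HOXA2), 10 of 10 HOXB genes, 7 of 9 HOXC genes and 9 of 9 HOXD genes, each with a single row. Of the other 12, 10 are HOXA genes that were not analysed here. HOXC4 and HOXC6 share 1 row that carries both symbols and was not used.

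The genes were measured in SNU-16, a human gastric carcinoma cell line, after growth in BALB/c nude mice, which lack a thymus and so accept human cells. The cells had been implanted into the wall of the stomach, and RNA came from cultures of the cells recovered at the end. The 4 groups were cells of ovarian metastases after round 2 of implantation, cells of ovarian metastases after round 1, cells of stomach tumours after round 2 and cells of stomach tumours after round 1, with 1 array each. No genetic change or drug treatment was stated for any of them. Cells recovered after round 1 were cultured for 7 days and implanted again, so each round 2 sample descends from the round 1 sample of its own site, and the 2 arrays of a site are successive passages of 1 lineage. The labels do not say how many mice stand behind a sample. The p-values below measure only the spread between these arrays, which may be partly technical. Groups were taken from the sample titles, which conflict in part with other label text for round 2: there the stomach sample is said to have been cultured from ovary, and the closing words for the ovary sample put its tumour in the stomach. An exchange of these samples would alter every comparison of sites that uses round 2. It would also alter every comparison of rounds within a site, the interaction and the counts for a single round 2 array. The averaged comparison of rounds and the round 1 comparison of sites would stay as they are.

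HOX genes encode transcription factors that bind DNA through a homeodomain and give cells their position along the body axis. Within a cluster the genes lie in the order in which they are used from head to tail, low paralog numbers toward the head and high numbers toward the tail, and genes with the same number in different clusters are paralogs of common ancestry. HOX proteins usually bind DNA together with cofactors of the PBX and MEIS families. Polycomb complexes keep the clusters silent through methylation of histone H3, MLL complexes keep them active, and retinoic acid switches on the genes at the head end during development. The adult gut keeps a regional pattern of HOX expression, with posterior genes such as HOXB13 used toward the hindgut.

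All values are log2 expression levels, and a difference of 1 is a doubling. The array medians lay between 6.80 and 6.84. Genes whose mean over the 4 arrays passed the 30th percentile of all rows, a level of 5.64, were tested, which left 14547 genes. The HOX genes above this signal minimum numbered 23, with 4 below it. All 10 measured epithelial and gastric carcinoma markers had means above the minimum, with EPCAM at 11.96, CDH1 at 11.57 and FGFR2 at 12.93. The lowest of them was KRT20, an intestinal keratin, which averaged 5.99 and lay under the minimum on the round 2 stomach array (5.28). Of markers of other cells the arrays could hold, 9 of 16 fibroblast and smooth muscle genes, 6 of 10 leukocyte genes, 5 of 9 endothelial genes, 5 of 5 mesothelial genes and 6 of 12 ovarian genes passed it. The summed fibroblast levels were 90.1 (round 2) and 90.7 (round 1) in ovary lines, against 89.8 (round 2) and 91.2 (round 1) in stomach lines. The summed leukocyte levels were 60.5 (round 2) and 59.5 (round 1) in ovary lines, against 60.9 (round 2) and 61.8 (round 1) in stomach lines. All 10 leukocyte genes, 4 of them under the minimum, were lower in ovary lines on average, where 49.3% of all tested genes were. So were 6 of 10 epithelial, 8 of 16 fibroblast and smooth muscle and 6 of 9 endothelial genes. Of the remaining lists, 1 of 5 mesothelial and 6 of 12 ovarian genes were lower. The fibroblast genes ran from POSTN at 3.47 to COL1A1 at 7.59 on average, the leukocyte genes from PTPRC at 4.04 to CD68 at 9.75 and the endothelial genes from EMCN at 4.51 to CLDN5 at 7.15. The median tested HOX level was 6.77 (round 2) and 6.78 (round 1) in ovary lines, against 6.81 (round 2) and 7.05 (round 1) in stomach lines. These medians lay within each of those ranges. Passing the minimum alone does not show that a gene was expressed.

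**Figure D1:**
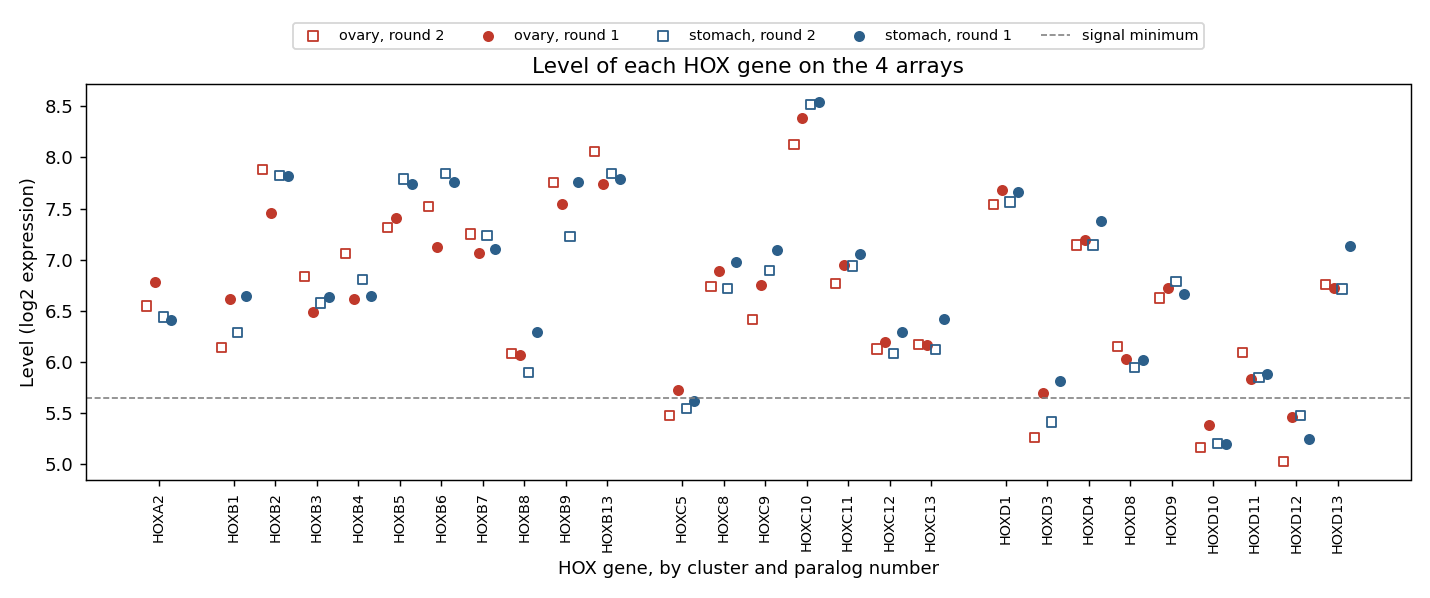
Log2 level (vertical axis) of each of the 27 HOX genes with a row (horizontal axis, by cluster and paralog number) on the 4 arrays, 1 point per array, with the signal minimum of 5.64 as a horizontal line. The gene whose arrays lie furthest apart is HOXB6, by 0.72, and HOXC5, HOXD3, HOXD10 and HOXD12 have means under the line.

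Promoter sequences were printed for HOXB1, which had the widest difference between rounds, and HOXA2, which had the widest site difference on the higher side. Neither difference was called. The reference held no promoter of HOXB5, HOXB6 or HOXC9, which had the widest site differences on the lower side. Each runs from 250 bases before the start of the gene to 50 bases after it in RefSeq, build GRCh38.p14. HOXB1 lies at chr17:48530962-48531261 on the minus strand and HOXA2 at chr7:27102634-27102933 on the minus strand. Capitals mark a match to TGATNNAT, a motif that PBX and HOX proteins bind together, searched on both strands. In HOXB1 the match starts at position -125 and reads along the gene, and in HOXA2 it starts at position -114 and reads on the opposite strand.
HOXB1: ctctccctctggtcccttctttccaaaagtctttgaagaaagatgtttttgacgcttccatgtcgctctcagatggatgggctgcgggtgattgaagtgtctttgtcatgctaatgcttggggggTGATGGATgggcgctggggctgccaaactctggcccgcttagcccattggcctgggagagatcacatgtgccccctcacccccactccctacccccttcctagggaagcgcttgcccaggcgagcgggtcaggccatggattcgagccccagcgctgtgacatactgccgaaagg
HOXA2: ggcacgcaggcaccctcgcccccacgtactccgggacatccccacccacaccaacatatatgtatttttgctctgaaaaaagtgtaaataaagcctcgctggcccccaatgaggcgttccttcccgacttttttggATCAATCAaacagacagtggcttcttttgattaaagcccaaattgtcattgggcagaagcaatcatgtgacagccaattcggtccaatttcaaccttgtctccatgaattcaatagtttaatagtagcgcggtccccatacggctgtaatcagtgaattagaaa
The motif had a match in 3 of the 11 HOX promoters given (HOXA2, HOXB1 and HOXD11) and in 7.4% of the 35116 promoters of the same length. TATAAA, the core of the TATA box, matched in 1 of the 11 (HOXD13) and in 11.5% of all promoters. AGGTCA, the half-site of retinoic acid receptors, matched in none of the 11 and in 13.8% of all promoters, which says only that these letters are not in these windows.

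The HOXB cluster had all 10 of its genes above the signal minimum, and it held both the gene furthest apart between sites and the gene furthest apart between rounds. HOXB1, the head-end gene needed for hindbrain segment identity, was 6.14 (round 2) and 6.62 (round 1) in ovary lines, against 6.29 (round 2) and 6.65 (round 1) in stomach lines. Both round 2 arrays lay below both round 1 arrays, while the sites overlapped. HOXB2, also a gene of the hindbrain, was 7.88 (round 2) and 7.45 (round 1) in ovary lines, against 7.82 (round 2) and 7.82 (round 1) in stomach lines. Its round 1 ovary array stood apart below the other arrays, which lay close together. HOXB3 was 6.83 (round 2) and 6.49 (round 1) in ovary lines, against 6.58 (round 2) and 6.63 (round 1) in stomach lines. The ovary arrays of HOXB3 enclosed the stomach arrays. HOXB4, known for promoting the growth of blood stem cells, was 7.06 (round 2) and 6.61 (round 1) in ovary lines, against 6.81 (round 2) and 6.64 (round 1) in stomach lines. Both round 2 arrays lay above both round 1 arrays, most clearly in ovary lines. In the RefSeq annotation HOXB3 overlaps HOXB4, so signal of shared sequence cannot be told apart between the pair.

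HOXB5 and HOXB6, neighbouring genes of the middle of the cluster, had lower levels in ovary lines. HOXB5, active in the embryonic foregut and lung, was 7.32 (round 2) and 7.41 (round 1) in ovary lines, against 7.79 (round 2) and 7.74 (round 1) in stomach lines. The sites did not overlap, and the arrays within a site lay within 0.094 of each other. HOXB6 was 7.52 (round 2) and 7.12 (round 1) in ovary lines, against 7.84 (round 2) and 7.76 (round 1) in stomach lines. The sites did not overlap here either, and the round 1 ovary array was the lowest. HOXB7 was 7.25 (round 2) and 7.07 (round 1) in ovary lines, against 7.24 (round 2) and 7.11 (round 1) in stomach lines. This gene split by round, and the sites were alike within each round to 0.040.

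HOXB8, a gene of the middle of the axis, was 6.08 (round 2) and 6.07 (round 1) in ovary lines, against 5.89 (round 2) and 6.30 (round 1) in stomach lines. The stomach arrays enclosed the ovary arrays. HOXB9 was 7.76 (round 2) and 7.54 (round 1) in ovary lines, against 7.22 (round 2) and 7.76 (round 1) in stomach lines. The round 2 stomach array was the low one, and the site difference had opposite signs in the rounds, 0.53 in round 2 and -0.21 in round 1. HOXB13, the tail-end gene of the cluster, known for its role in prostate and hindgut, was 8.06 (round 2) and 7.74 (round 1) in ovary lines, against 7.84 (round 2) and 7.79 (round 1) in stomach lines. Both round 2 arrays of HOXB13 lay above both round 1 arrays.

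In the HOXC cluster the round 1 stomach array was the highest of the 4 for all 6 tested genes, where it was for 28.6% of all tested genes (ties counted). With arrays centred on their medians it was the highest for 5 of the 6. HOXC8, a thoracic gene of the axis, was 6.74 (round 2) and 6.89 (round 1) in ovary lines, against 6.72 (round 2) and 6.98 (round 1) in stomach lines. The rounds did not overlap, and the sites differed by 0.018 in round 2 and -0.082 in round 1. HOXC9, which specifies thoracic identity, was 6.42 (round 2) and 6.75 (round 1) in ovary lines, against 6.89 (round 2) and 7.10 (round 1) in stomach lines. Both ovary arrays lay below both stomach arrays, and at each site round 2 was the lower. HOXC10, a gene of the lumbar region, was 8.13 (round 2) and 8.39 (round 1) in ovary lines, against 8.52 (round 2) and 8.55 (round 1) in stomach lines. The sites of HOXC10 did not overlap.

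HOXC11, a paralog of the tail end, was 6.77 (round 2) and 6.95 (round 1) in ovary lines, against 6.94 (round 2) and 7.05 (round 1) in stomach lines. Each round 2 array was lower than its round 1 array, and the rounds fell just short of overlapping. HOXC12 was 6.13 (round 2) and 6.19 (round 1) in ovary lines, against 6.08 (round 2) and 6.30 (round 1) in stomach lines. It split by round only. HOXC13, known for its role in hair and nail keratins, was 6.17 on both ovary arrays, against 6.12 (round 2) and 6.42 (round 1) in stomach lines. The exact tie between the ovary arrays left the round 1 stomach array as the one that stood apart.

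Of the HOXD genes, 6 were tested, and none differed on average by more than 0.19 between sites or rounds. HOXD1, the head-end gene of the cluster, was 7.54 (round 2) and 7.68 (round 1) in ovary lines, against 7.56 (round 2) and 7.66 (round 1) in stomach lines. The rounds did not overlap and the sites did. HOXD4 was 7.14 (round 2) and 7.19 (round 1) in ovary lines, against 7.14 (round 2) and 7.38 (round 1) in stomach lines. Its round 2 arrays were tied exactly, below both round 1 arrays. HOXD8 was 6.15 (round 2) and 6.02 (round 1) in ovary lines, against 5.94 (round 2) and 6.01 (round 1) in stomach lines. Both ovary arrays of HOXD8 lay above both stomach arrays, by 0.0090 at the nearest.

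HOXD9 was 6.62 (round 2) and 6.73 (round 1) in ovary lines, against 6.79 (round 2) and 6.67 (round 1) in stomach lines. Neither site nor round separated its arrays. HOXD11, which patterns the forearm and kidney together with its HOXA paralog in mice, was 6.09 (round 2) and 5.83 (round 1) in ovary lines, against 5.85 (round 2) and 5.89 (round 1) in stomach lines. HOXD13, the gene of digits and the hindgut end, was 6.76 (round 2) and 6.72 (round 1) in ovary lines, against 6.71 (round 2) and 7.13 (round 1) in stomach lines. HOXD11 had 1 array apart at the top, the round 2 ovary one, and HOXD13 likewise had the round 1 stomach array.

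HOXA2, which specifies the second branchial arch, was the 1 HOXA gene analysed here. It was 6.55 (round 2) and 6.78 (round 1) in ovary lines, against 6.44 (round 2) and 6.41 (round 1) in stomach lines. Both ovary arrays lay above both stomach arrays, and the site difference was 0.11 in round 2 and 0.37 in round 1.

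HOXC5, HOXD3, HOXD10 and HOXD12 averaged 5.59, 5.55, 5.24 and 5.30, under the signal minimum, and were not tested. Over the 4 arrays, HOXC5 ran from 5.47 to 5.73, HOXD3 from 5.26 to 5.82, HOXD10 from 5.17 to 5.38 and HOXD12 from 5.02 to 5.48. HOXD3 was lower in round 2 at each site, by -0.43 in ovary lines and -0.41 in stomach lines. In the annotation it overlaps HOXD4. HOXC5 lay just outside the minimum, and the members just inside it were HOXD11 at 5.91 and HOXD8 at 6.03.

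The comparison of ovarian metastases with stomach tumours asked which genes differ with the site the cells were taken from. No HOX gene passed the test (limma, Benjamini-Hochberg adjusted p under 0.05), and 0.0% of the 14547 genes did, the smallest adjusted p of any gene being 0.578. The limma adjusted p of every tested HOX gene was 1. At an unadjusted limma p under 0.05 there were 3 of 23 HOX genes, HOXB5, HOXB6 and HOXC9, all of them lower in ovary lines, beside 2.6% of all tested genes. HOXB6 averaged 7.32 ± 0.28 in ovary lines and 7.80 ± 0.054 in stomach lines (SD, n = 2 each), 1.39-fold lower, with a difference of -0.48 ± 0.16 (SE, limma adjusted p = 1). HOXC9 averaged 6.58 ± 0.23 in ovary lines and 6.99 ± 0.14 in stomach lines, 1.33-fold lower (-0.41 ± 0.15, limma adjusted p = 1). HOXB5 averaged 7.36 ± 0.067 in ovary lines and 7.77 ± 0.032 in stomach lines, 1.32-fold lower (-0.40 ± 0.092, limma adjusted p = 1). Each of these differences is larger than the SD within either site, but the test over all genes does not call it. HOXC10 followed with 8.26 ± 0.18 in ovary lines and 8.53 ± 0.020 in stomach lines (-0.27 ± 0.12, limma adjusted p = 1). Leaving out 1 array moved these values. The HOXB6 difference was -0.28 without the round 1 ovary array. Without the round 2 ovary array, HOXC9 had -0.24 and HOXC10 -0.15. HOXB5 stayed between -0.45 and -0.36.

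On the higher side HOXA2 had the widest site difference, with 6.66 ± 0.17 in ovary lines and 6.42 ± 0.021 in stomach lines, 1.18-fold higher (0.24 ± 0.12, limma adjusted p = 1). HOXB9 (0.16 ± 0.21) and HOXB4 (0.11 ± 0.18) came next, each with an error larger than the difference. The HOXA2 difference was 0.12 without the round 1 ovary array. HOXB9 had -0.11 without the round 2 stomach array and HOXB4 -0.11 without the round 2 ovary array, so both changed sign. Both ovary arrays lay below both stomach arrays for 4 HOX genes, HOXB5, HOXB6, HOXC9 and HOXC10, where 11.2% of all tested genes did. They lay above for 2, HOXA2 and HOXD8, where 13.4% of all tested genes did. Neither count stands far from the share among all tested genes.

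For 14 of the 23 HOX genes the site difference had opposite signs in the rounds, where 45.1% of all tested genes did. They were 7 HOXB, 3 HOXC and 4 HOXD genes. In round 1, 19 of the 23 HOX genes were lower in the ovary line and 4 higher, where 51.4% of all tested genes were lower and 46.2% higher. This held for 10 of 10 HOXB genes, 6 of 6 HOXC genes and 3 of 6 HOXD genes. In the same round 6 of 6 tested leukocyte, 7 of 9 fibroblast and smooth muscle, 7 of 10 epithelial and 3 of 5 endothelial markers were lower in the ovary line. Of the tested mesothelial markers 1 of 5 and of the ovarian markers 2 of 6 were lower. The part of these markers in the HOX values was not tested. In round 2, 8 of 23 were lower in the ovary line, 3 of them HOXB, 3 HOXC and 2 HOXD genes, and 14 were higher, where 45.5% of all tested genes were lower and 51.9% higher. The median difference over the HOXB genes was 0.12 in round 2 and -0.18 in round 1, and over the HOXC genes -0.077 in round 2 and -0.13 in round 1, while the median over all tested genes was 0.0076 in round 2 and -0.0053 in round 1. The genes lower in ovary in both rounds numbered 6, HOXB1, HOXB5, HOXB6, HOXC9, HOXC10 and HOXC11, where 24.7% of all tested genes were. HOXA2 and HOXD8 were higher in both rounds, where 25.3% of all tested genes were. HOXB6 in round 1 was the 1 HOX gene at least 1.5-fold apart between sites, a distance reached by 2.03% of all tested genes in that round. In round 2 none reached it, beside 1.22% of all tested genes. Each single-round difference sets 1 array against 1 array and has no replicate check. After quantile normalization or centring of the arrays, 10 HOXB and 6 HOXC genes were again lower in round 1.

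**Figure D2:**
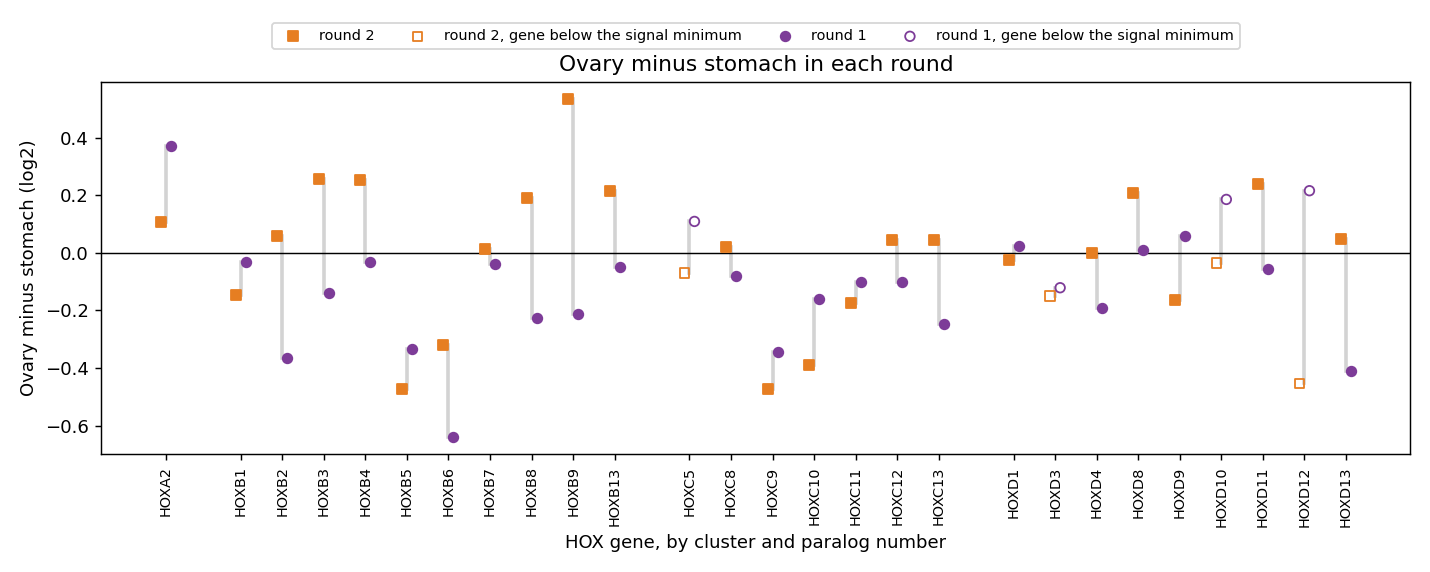
Ovary minus stomach in log2 units (vertical axis) for each HOX gene (horizontal axis, by cluster and paralog number), with 1 point for round 2 and 1 for round 1 and a line joining them; open symbols are genes below the signal minimum. All 10 HOXB and all 6 tested HOXC genes lie below 0 in round 1, and 7 of the 10 HOXB genes lie above 0 in round 2.

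The median over the 23 HOX genes of the average site difference was -0.032, beside 0.0016 over all tested genes, and 16 of the 23 were lower in ovary on average, where 49.3% of all tested genes were. The median was -0.015 over HOXB, -0.12 over HOXC and -0.027 over HOXD. The HOX median was 0.045 without the round 1 stomach array and -0.15 without the round 2 stomach array, so 1 array decided its sign. By paralog group, 4 of 7 genes of groups 1 to 4, 5 of 6 of groups 5 to 8 and 7 of 10 of groups 9 to 13 were lower in ovary lines on average.

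The comparison of rounds asked what changed as the cells were passed through a further implantation. Again no HOX gene and 0.0% of all genes passed at an adjusted p under 0.05, and the smallest adjusted p of any gene was 0.149. At an unadjusted limma p under 0.05 there were 3 of 23 HOX genes, HOXB1, HOXB4 and HOXC8, beside 15.0% of all tested genes, a share that leaves the members at the background. HOXB1 averaged 6.21 ± 0.10 in round 2 and 6.63 ± 0.023 in round 1 (SD, n = 2 each), 1.34-fold lower, with a difference of -0.42 ± 0.084 (limma adjusted p = 0.287). HOXB4 averaged 6.93 ± 0.18 in round 2 and 6.63 ± 0.022 in round 1, 1.24-fold higher (0.30 ± 0.11, limma adjusted p = 0.318). HOXC8 averaged 6.73 ± 0.013 in round 2 and 6.93 ± 0.058 in round 1, 1.15-fold lower (-0.21 ± 0.073, limma adjusted p = 0.319). Of the widest differences that remain, HOXC9 had -0.27 ± 0.20, HOXB6 0.24 ± 0.24 and HOXB2 0.22 ± 0.14, none of them at an unadjusted p under 0.05. Without the round 2 ovary array the HOXB4 difference was 0.18 and that of HOXC9 -0.031. Without the round 1 ovary array HOXB6 had -0.083 and HOXB2 0.034.

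Between rounds the HOXB and HOXC medians had opposite signs. Over the HOXB genes the median difference of round 2 minus round 1 was 0.15, and over the HOXC genes it was -0.15, beside -0.019 over all tested genes and -0.055 over HOXD. In ovary lines 8 of 10 HOXB genes were higher in round 2 and 5 of 6 HOXC genes were lower, the sixth being tied. Among all tested genes, 47.0% were higher in round 2 in ovary lines and 50.4% lower. In stomach lines 6 of 10 HOXB genes were higher in round 2 and 6 of 6 HOXC and 5 of 6 HOXD genes were lower, where 44.1% of all tested genes were higher and 53.8% lower. The HOXB median was 0.26 in ovary lines and 0.025 in stomach lines, and the HOXC median -0.17 in ovary lines and -0.21 in stomach lines. At both sites, 5 genes were higher in round 2 (HOXB2, HOXB4, HOXB6, HOXB7 and HOXB13), where 29.0% of all tested genes were. Lower at both sites were 8 (HOXB1, HOXC8, HOXC9, HOXC10, HOXC11, HOXC12, HOXD1 and HOXD4), where 34.7% of all tested genes were. These counts depended in part on the scaling of the arrays. After quantile normalization or centring, 5 of 6 HOXC genes were lower in round 2 in ovary lines and 1 was higher. With centred arrays the same counts held in stomach lines. Quantile normalization left 5 of 10 HOXB genes higher in round 2 in stomach lines and 5 lower. The difference between the HOXB and HOXC clusters was not tested.

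**Figure D3:**
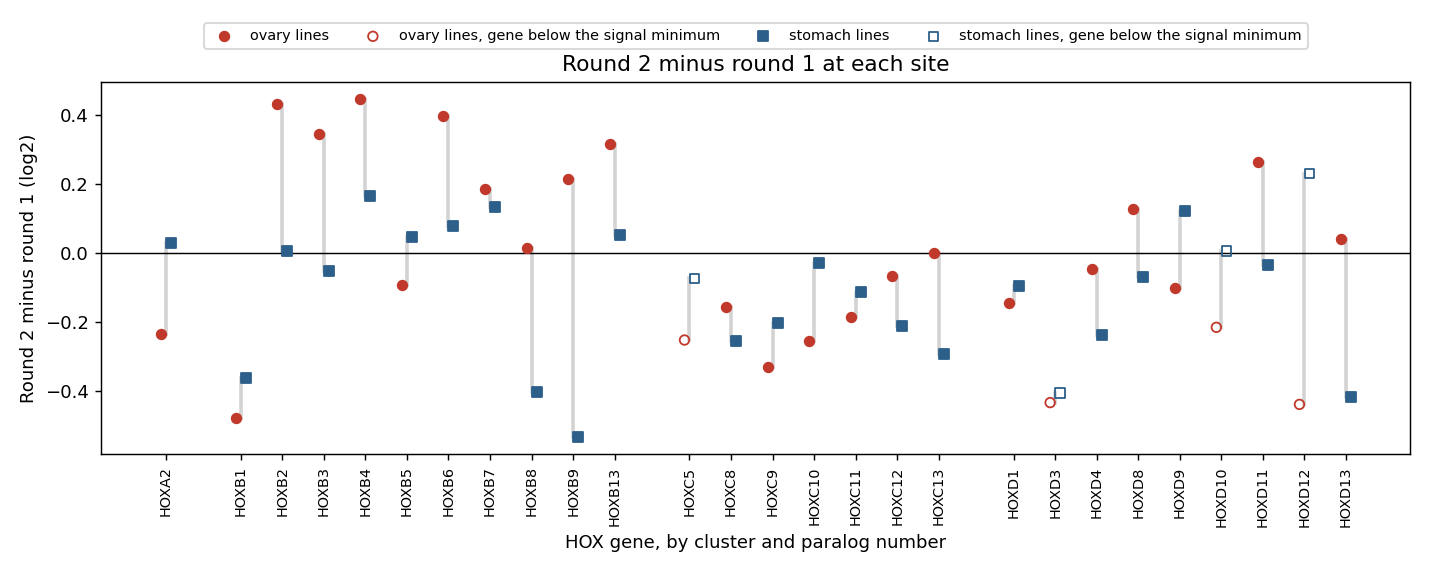
Round 2 minus round 1 in log2 units (vertical axis) for each HOX gene (horizontal axis, by cluster and paralog number), with 1 point for ovary lines and 1 for stomach lines and a line joining them; open symbols are genes below the signal minimum. In ovary lines 8 of the 10 HOXB genes lie above 0, and no tested HOXC gene lies above 0 at either site in the values as deposited.

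Both round 2 arrays lay below both round 1 arrays for 6 HOX genes (HOXB1, HOXC8, HOXC11, HOXC12, HOXD1 and HOXD4), where 26.8% of all tested genes did. They lay above for 4 (HOXB2, HOXB4, HOXB7 and HOXB13), where 22.2% of all tested genes did. HOXB2 is among them with a round difference of 0.43 in ovary lines and of 0.0045 in stomach lines. No HOX gene was 1.5-fold apart between rounds in ovary lines, where 3.39% of all tested genes were, or in stomach lines, where 2.17% of all tested genes were.

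The HOXB genes had their extremes mostly on the ovary arrays. The round 1 ovary array was the lowest of the 4 for 6 of 10 HOXB genes, where 26.4% of all tested genes had it lowest, ties counted. The round 2 ovary array was the highest for 6 of 10, where 25.9% of all tested genes had it highest, and after quantile normalization it was so for 4 of 10. The round 1 ovary array was highest for 0 of 10 HOXB genes (27.6% of all tested genes) and the round 2 ovary array lowest for 2 of 10 (26.3%). In stomach lines the round 2 array was highest for 2 of 10 (21.5%) and lowest for 2 of 10 (30.4%). The round 1 stomach array was highest for 2 of 10 (28.6%) and lowest for 0 of 10 (22.5%). Relative to the mean of the other 3 arrays the HOXB median was 0.15 on the round 2 ovary array and -0.17 on the round 1 ovary array. By the same measure it was 0.0067 on the round 2 stomach array and 0.17 on the round 1 stomach array. Of the keratins, which form the intermediate filaments of epithelium, KRT8, KRT18 and KRT19 also had their lowest value on the round 1 ovary array, and KRT20 had its highest there. KRT8 was 12.64 (round 2) and 12.19 (round 1) in ovary lines, against 12.69 (round 2) and 12.54 (round 1) in stomach lines. KRT18 was 12.17 (round 2) and 11.83 (round 1) in ovary lines, against 12.18 (round 2) and 12.10 (round 1) in stomach lines. KRT20 was 6.0 (round 2) and 6.96 (round 1) in ovary lines, against 5.28 (round 2) and 5.74 (round 1) in stomach lines. EPCAM, CDH1, FGFR2 and CLDN4, of the same list of epithelial markers, were also lowest on the round 1 ovary array. CD44 and MYC, which complete that list, were highest there, like KRT20. Among all tested genes, 26.4% were lowest on that array and 27.6% highest. The part of these genes in the HOXB values was not tested. Over the whole list of 10 epithelial markers the summed level was 115.0 (round 2) and 114.4 (round 1) in ovary lines, against 113.8 (round 2) and 114.6 (round 1) in stomach lines.

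The interaction of site and round, which asks whether the site difference depended on the round, had no call either (0.0% of all tested genes, smallest limma adjusted p = 1). At an unadjusted limma p under 0.05 there was 1 HOX gene, HOXB9, beside 1.33% of all tested genes. Its fitted value, which is 1/2 of the round 2 minus the round 1 site difference, was 0.37 (limma adjusted p = 1). The variation between the 4 arrays divided differently over the clusters, as a description with no test. Of the summed squares, 39.7% lay between sites, 37.0% between rounds and 23.3% in the interaction over the 23 HOX genes, beside 26.6%, 51.5% and 21.9% over all tested genes. For HOXC the share between sites was 52.7%, for HOXB 35.7% and for HOXD 25.4%. The median distance from the lowest to the highest array was 0.44 for HOXB, 0.29 for HOXC and 0.22 for HOXD, beside 0.26 for all tested genes.

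The clusters also hold non-coding genes. Of 25 listed, 6 had a row and 3 were tested, with no call in either comparison. The microRNAs are encoded within the HOX clusters, where MIR10A overlaps HOXB3 in the annotation, and bind HOX transcripts. Their 5′ mature forms, from RefSeq, build GRCh38.p14, are shown because they are the parts of the clusters that act on HOX transcripts, with the seed (bases 2 to 8) in capitals. hsa-miR-10a-5p lies at chr17:48579904-48579926 on the minus strand, in MIR10A. hsa-miR-196a-5p lies at chr17:48632532-48632553 on the minus strand, in MIR196A1, and the same sequence comes from MIR196A2 at chr12:53991762-53991783 on the plus strand.
hsa-miR-10a-5p: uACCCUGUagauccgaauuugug
hsa-miR-196a-5p: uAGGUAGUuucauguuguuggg
The probe sets measure the genes of these RNAs and were made for long transcripts, so the values need not follow the mature forms. MIR196A1 was 7.02 (round 2) and 7.14 (round 1) in ovary lines, against 7.10 (round 2) and 7.55 (round 1) in stomach lines (site -0.25 ± 0.17, round -0.28 ± 0.15). As for the HOXC genes, its round 1 stomach array was the highest. MIR10A lay far below the signal minimum, at 4.03 (round 2) and 3.42 (round 1) in ovary lines, against 3.96 (round 2) and 3.41 (round 1) in stomach lines. MIR10B ran from 2.78 to 2.86 and MIR196A2 from 5.24 to 5.40, and neither was tested. HOXB-AS3, an antisense transcript that overlaps HOXB5 and HOXB6, was 6.81 (round 2) and 6.73 (round 1) in ovary lines, against 6.62 (round 2) and 6.89 (round 1) in stomach lines. Its sites overlapped, unlike those of HOXB5 and HOXB6. HOXA-AS2 was 5.95 (round 2) and 5.96 (round 1) in ovary lines, against 6.31 (round 2) and 5.97 (round 1) in stomach lines.

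The cofactors of the TALE class, homeodomain proteins that bind DNA with HOX proteins, had 7 measured genes, none of which passed the test between sites or between rounds. MEIS1 was 7.57 (round 2) and 6.51 (round 1) in ovary lines, against 7.49 (round 2) and 7.19 (round 1) in stomach lines. Its round 1 ovary array was the low one, and the rounds did not overlap (0.68 ± 0.24, limma adjusted p = 0.316). PBX4 averaged 7.96 in round 2 and 8.21 in round 1 (-0.25 ± 0.084, limma adjusted p = 0.308). PBX3 was 9.45 (round 2) and 9.16 (round 1) in ovary lines, against 9.40 (round 2) and 9.31 (round 1) in stomach lines. MEIS2, MEIS3, PKNOX1 and PKNOX2 differed on average between sites by -0.086, -0.043, 0.16 and -0.0042.

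The ParaHox genes, the sister group of the HOX genes that includes regulators of gut identity, had 5 tested genes and no call. CDX2, the regulator of intestinal identity that acts upstream of HOX genes in mouse embryos, was 8.49 (round 2) and 8.53 (round 1) in ovary lines, against 8.48 (round 2) and 8.69 (round 1) in stomach lines. CDX1 was 8.01 (round 2) and 8.23 (round 1) in ovary lines, against 8.12 (round 2) and 8.15 (round 1) in stomach lines, and the sites of both genes overlapped. PDX1, the regulator of pancreas and antrum, was 7.31 (round 2) and 7.36 (round 1) in ovary lines, against 7.22 (round 2) and 7.46 (round 1) in stomach lines. The widest site difference was that of GSX2 (-0.20 ± 0.092), while GSX1 had 0.056 ± 0.090 and CDX4 lay below the minimum. EVX1 and EVX2, homeobox genes beside the HOXA and HOXD clusters, differed between sites by 0.019 ± 0.086 and 0.11 ± 0.089.

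Of the Polycomb genes, 13 were tested and none was called. The core of Polycomb repressive complex PRC2 was measured through EZH2, the methyltransferase, and its partners EED and SUZ12. EZH2 was 10.36 (round 2) and 10.24 (round 1) in ovary lines, against 10.18 (round 2) and 9.95 (round 1) in stomach lines. EED was 9.06 (round 2) and 8.60 (round 1) in ovary lines, against 8.86 (round 2) and 8.37 (round 1) in stomach lines. SUZ12 was 10.98 (round 2) and 10.69 (round 1) in ovary lines, against 10.84 (round 2) and 10.46 (round 1) in stomach lines. All 3 were higher in ovary lines in each round and higher in round 2 at each site. Of the 13 Polycomb genes, 7 were higher in ovary lines in each round and 1 was lower, where 25.3% and 24.7% of all tested genes were. At each site 5 of the 13 were higher in round 2 and 5 lower, where 29.0% and 34.7% of all tested genes were. The round difference was 0.47 ± 0.12 for EED (limma adjusted p = 0.287) and 0.34 ± 0.11 for SUZ12 (limma adjusted p = 0.304), and the site difference of EZH2 was 0.23 ± 0.12 (limma adjusted p = 1). CBX2, a reader of the Polycomb mark, ran from 8.11 to 8.13.

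The H3K27 demethylases, which remove that mark, had 2 tested genes, with no call. KDM6A had a round difference of 0.28 ± 0.085 (limma adjusted p = 0.296). KDM6B was 8.04 (round 2) and 7.96 (round 1) in ovary lines, against 7.80 (round 2) and 7.83 (round 1) in stomach lines. None of the 10 MLL and COMPASS genes was called. KMT2A, which encodes the MLL1 methyltransferase, was 9.92 (round 2) and 10.06 (round 1) in ovary lines, against 10.20 (round 2) and 9.86 (round 1) in stomach lines. Its partner MEN1, encoding menin, was 8.04 (round 2) and 8.09 (round 1) in ovary lines, against 7.85 (round 2) and 8.03 (round 1) in stomach lines.

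Retinoic acid pathway genes numbered 14 tested, with no call. In each round 7 of the 14 were lower in ovary lines and 0 higher, where 24.7% and 25.3% of all tested genes were. The widest site difference was that of RBP4 (-0.79 ± 0.43), at -0.11 in round 2 and -1.47 in round 1. DHRS3 (-0.27 ± 0.091) was the 1 gene at an unadjusted limma p under 0.05 between sites, beside 2.6% of all tested genes. The receptor gene RARG was 8.73 (round 2) and 8.18 (round 1) in ovary lines, against 8.72 (round 2) and 8.45 (round 1) in stomach lines (0.41 ± 0.11 between rounds, limma adjusted p = 0.287). RARB, itself a target of retinoic acid, was 8.75 (round 2) and 8.50 (round 1) in ovary lines, against 8.85 (round 2) and 8.74 (round 1) in stomach lines. CYP26A1, which degrades retinoic acid, differed by -0.11 ± 0.11 between sites, and CRABP2, a carrier of retinoic acid, by -0.094 ± 0.096.

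**Figure D4:**
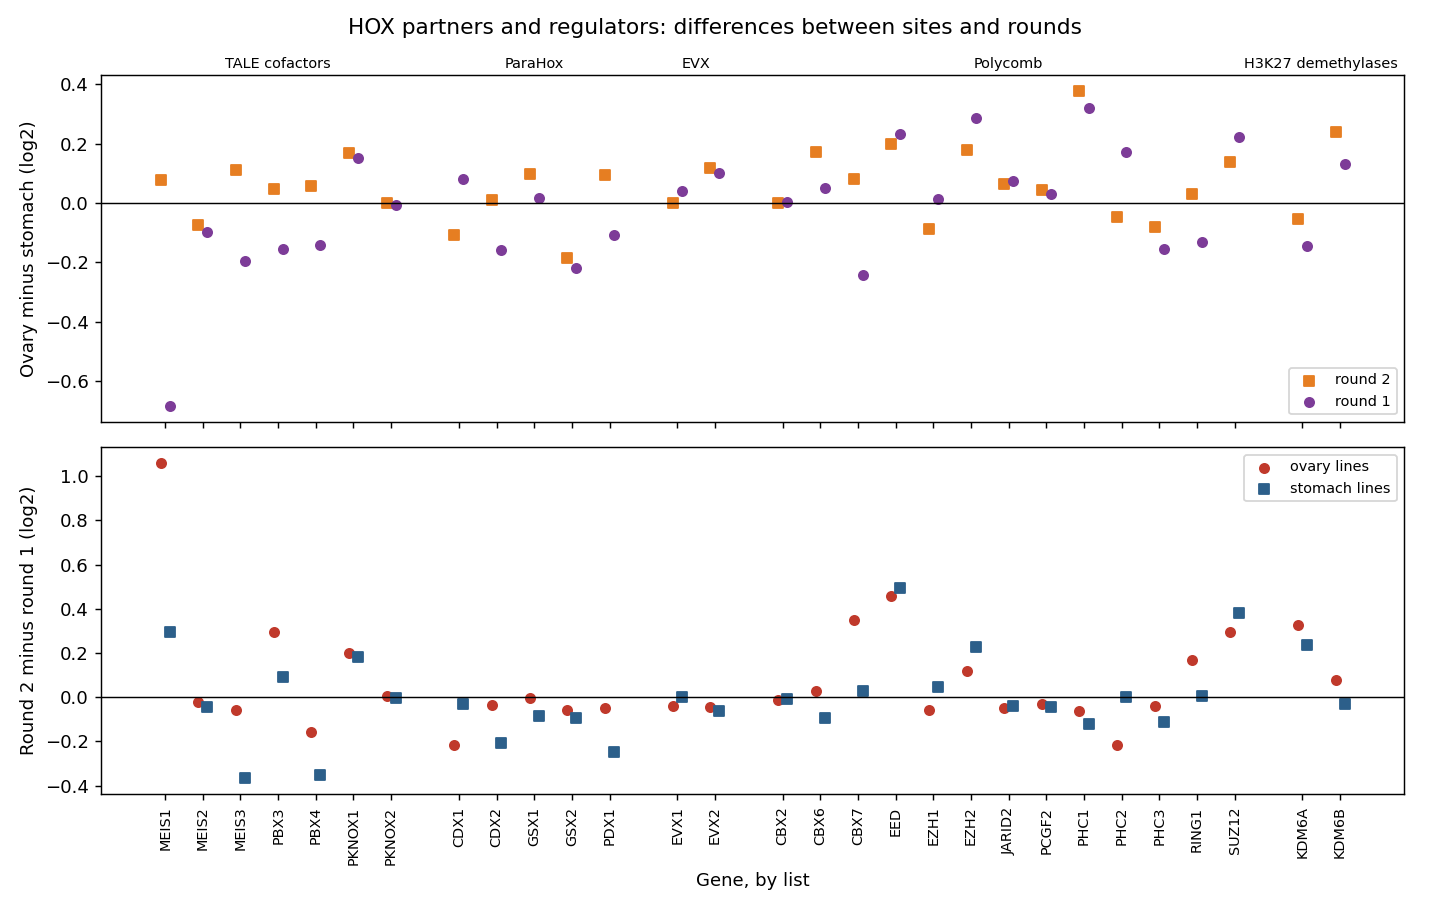
Differences in log2 units (vertical axis) for tested genes that work with or regulate HOX genes (horizontal axis, by list). The upper panel gives ovary minus stomach, with 1 point for round 2 and 1 for round 1. The lower panel gives round 2 minus round 1, with 1 point for ovary lines and 1 for stomach lines. In the lower panel MEIS1 lies at 1.06 in ovary lines and 0.30 in stomach lines, and EED and SUZ12 lie above 0 at each site.

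The genes that flank the clusters were set beside the HOX genes, taking the nearest 3 measured genes on each side by annotation order. No flanking gene was called. At an unadjusted limma p under 0.05 there were 0 of 22 between sites, where 2.6% of all tested genes were. Between rounds there were 2 of 22, where 15.0% of all tested genes were, and both lie next to HOXC. CBX5, encoding heterochromatin protein HP1 alpha, was 10.47 (round 2) and 10.82 (round 1) in ovary lines, against 10.51 (round 2) and 10.71 (round 1) in stomach lines. HNRNPA1, an RNA-binding protein of splicing, averaged 7.02 in round 2 and 6.60 in round 1. By the sign of the average round difference, 3 of the 6 flanking genes of HOXC were lower in round 2 and 3 higher. All 6 tested HOXC genes were lower by that sign, where 54.5% of all tested genes were, and the difference between these groups was not tested.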

How the data were processed

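The authors deposited log2 values in 1 table, in which each row is a probe set and each column an array. Per the labels' protocols, TRIzol was used to extract RNA, and the WT Terminal Labeling Kit to biotinylate it for Affymetrix arrays. The submitters' processing notes name Affymetrix Expression Console without a version. How background was corrected and arrays normalized was not given in the sources used here, and a shift shared by all transcripts may have been removed before deposit.

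The table has 33297 rows. By the platform annotation 19460 of them have a single gene symbol, 1754 have several and were not used, and 12083 are unnamed here. Gene identifiers of 19429 single-gene rows were found in RefSeq GRCh38.p14, which gave current symbols. The rows stand for 18417 genes. For 769 genes with several rows, the row of highest mean stands for the gene. A mean above the 30th percentile of row means was required for testing (14547 genes).

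limma 3.58.1 under R 4.3.3 fitted linear models with moderated, two-sided tests to all 4 arrays, with 2 residual degrees of freedom, and p-values were adjusted by Benjamini-Hochberg over all tested genes (threshold 0.05). The fits were ovary minus stomach, round 2 minus round 1, and their interaction. The fit of sites was tested on simulated data with known changes, and the fits of rounds and of the interaction were not. The number of arrays limits the precision. Figures were drawn with matplotlib 3.10.9. The HOX genes and the lists set beside them were chosen with earlier results of these data known. Counting ties among the highest or lowest arrays was chosen after the values were seen, and leaving ties out gave 7 instead of 8 HOX genes lowest on each round 2 array and the same count on the other arrays. All HOX genes are named, and of the other lists a set of genes chosen by role, with RBP4 and DHRS3 added for their values. The results were recomputed with quantile-normalized or centred arrays, with no signal minimum or one at the 50th percentile, with a replicate block, with other priors, with an adjusted p threshold of 0.10 and without each array.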

Additional observations from a re-analysis of the deposited data

How the results depend on the processing

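Under every alternative run, limma called 0 genes and 0 HOX genes between sites or between rounds at an adjusted p under 0.05. The threshold of 0.10 was applied to the fit reported, where it gave 0 calls. With centred arrays the smallest adjusted p of any gene between rounds was 0.0863, which is under 0.10. Leaving out 1 array in turn gave from 0 to 0 calls. With the replicate block, which is the round in the fit of sites and the site in the fit of rounds, limma called 0 genes, with 916 genes between sites and 2358 between rounds at an unadjusted p under 0.05, and the smallest adjusted p of a HOX gene was 0.768 between sites and 0.220 between rounds. The numbers are the rounds. Deviations of same-round arrays from the site means correlated at 0.411 over all tested genes, from 2 pairs. With the minimum at the 50th percentile, 12 HOX genes were tested and 0 had both ovary arrays above both stomach arrays, against 2 in the fit reported, because HOXA2 and HOXD8 fell below it. HOXC9, with a mean of 6.79, fell below it too. Both ovary arrays then lay below both stomach arrays for 3 HOX genes, against 4 in the fit reported. At an unadjusted limma p under 0.05 between sites there were 2 HOX genes, against 3. Leaving out 1 array, the median site difference over the HOX genes ran from -0.15 to 0.045 and the median round difference from -0.19 to -0.023. The HOX genes whose sites did not overlap numbered 5 to 12 lower and 2 to 9 higher, and those whose rounds did not overlap 7 to 11 lower and 5 to 8 higher, since a side of 1 array separates more easily. Centring turned the site difference of HOXD1, which was near 0. With 4 arrays and 2 residual degrees of freedom, only large differences could pass over 14547 genes, and the levels near the signal minimum are the least reliable.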
